A study of Mus musculus with 18 samples.

Results

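The genes described here are 28 mouse genes of cholesterol synthesis, sterol transport and the control of the transcription factor SREBP2. The rule lists them by name, as genes of the known steps of the pathway, and they were chosen with earlier results of these data known. All 28 were found among the 56748 gene IDs of the count table, and all 28 were among the 14985 genes that passed the filter on low counts. Levels were read in 18 polyA-selected, directional mRNA libraries of RN2, an established mouse line of MLL-AF9 / NrasG12D acute myeloid leukemia, grown with 10% fetal bovine serum. Every library came from cells that had been transduced with a lentivirus and sorted on day 5. The 6 groups hold 3 libraries each. In the first group the construct was nCas9, the Cas9 nickase alone. In the catalytic mutant group it was the intact base editor (BE) with its DNA deaminase, named evoA1 in the labels, made catalytically inactive. Intact BE, the editor with the active deaminase, was measured under vehicle and after 24 h with 1 nM rapamycin, a small molecule that binds FKBP12 and inhibits the kinase complex mTORC1. The construct called seBE was measured under the same pair of treatments, and the labels do not spell out its name. For the nCas9 and catalytic mutant libraries the treatment field gives 24 h of vehicle, while the protocol text describes vehicle or rapamycin for intact BE and seBE only. Replicates are named biological in the sample titles, but no label states whether they were separate cultures, so each p-value reflects only how far these samples varied, which may be technical. The series' design text gives the purpose as looking for changes in gene expression that could relate to toxicity of base editors.

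Cells build cholesterol from acetyl-CoA through the mevalonate pathway, which also feeds isoprenoids, and then through squalene and lanosterol. The transcription factor SREBP2, encoded by Srebf2, controls most genes of the pathway. When membrane sterol is low, the escort protein SCAP carries SREBP2 from the endoplasmic reticulum to the Golgi, where the site-1 and site-2 proteases release its active part. When sterol is high, the INSIG proteins hold SCAP and SREBP2 back. Serum lipoproteins supply cholesterol from outside, and in blood cells, leukemia cells included, synthesis and uptake both serve membrane growth. A set of counts per gene measures messenger RNA only, and neither SREBP2 cleavage nor cholesterol was measured here.

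Promoter sequences are shown for 4 members because these genes lie at different places in the pathway (an early mevalonate enzyme, a late mevalonate enzyme, a late sterol enzyme and a member of the sterol sensor) and are among those on which the comparisons below turn. Each is the 250 bases upstream of the annotated start from RefSeq on GRCm38.p6, 5′ to 3′ on the gene's strand. The authors aligned to GRCm39, so these coordinates are not those of their files. Capitals mark 3 motifs searched on both strands: TCACNCCAC, a form of the sterol regulatory element, CCAAT, which the factor NF-Y binds, and GGGCGG, the core that Sp1 binds. A match on the other strand is printed as its reverse complement. Hmgcs1 lies at chr13:119690101-119690350 on the plus strand, Idi1 at chr13:8885356-8885605 on the plus strand, Hsd17b7 at chr1:169969206-169969455 on the minus strand and Insig1 at chr5:28071162-28071411 on the plus strand.
Hmgcs1: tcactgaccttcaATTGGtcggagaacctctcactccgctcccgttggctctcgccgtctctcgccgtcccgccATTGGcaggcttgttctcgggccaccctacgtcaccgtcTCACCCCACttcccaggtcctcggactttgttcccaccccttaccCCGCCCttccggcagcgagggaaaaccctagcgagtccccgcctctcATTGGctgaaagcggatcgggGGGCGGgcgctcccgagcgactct
Idi1: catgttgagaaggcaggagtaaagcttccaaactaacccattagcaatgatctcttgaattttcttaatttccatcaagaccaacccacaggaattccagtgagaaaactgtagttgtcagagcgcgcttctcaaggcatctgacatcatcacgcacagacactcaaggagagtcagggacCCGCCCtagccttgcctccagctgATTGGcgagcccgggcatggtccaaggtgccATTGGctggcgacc
Hsd17b7: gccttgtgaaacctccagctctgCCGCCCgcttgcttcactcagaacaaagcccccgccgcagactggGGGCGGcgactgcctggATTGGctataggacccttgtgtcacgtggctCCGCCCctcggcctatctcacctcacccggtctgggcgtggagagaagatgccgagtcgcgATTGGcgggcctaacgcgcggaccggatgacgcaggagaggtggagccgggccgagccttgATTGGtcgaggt
Insig1: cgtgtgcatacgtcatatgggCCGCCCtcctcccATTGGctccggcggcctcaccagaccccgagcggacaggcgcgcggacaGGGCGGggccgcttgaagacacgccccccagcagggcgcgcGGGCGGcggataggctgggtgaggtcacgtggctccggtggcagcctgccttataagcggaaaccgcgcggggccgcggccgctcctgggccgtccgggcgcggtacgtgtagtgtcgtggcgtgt

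The printed Hmgcs1 sequence holds 1 TCACNCCAC, 3 CCAAT and 2 GGGCGG matches. In Idi1 there are 2 CCAAT and 1 GGGCGG, in Hsd17b7 3 of each, and in Insig1 1 CCAAT and 3 GGGCGG. Motif matches were counted over windows from 250 bases before to 50 after the start, and 23 of the 28 members had at least 1 such window, 29 windows in all. Fdps, Fdft1, Sqle, Stard4 and Npc1 had none. TCACNCCAC was found in 1 of the 29 member windows, that of Hmgcs1, and in 1.24% of all 32851 promoter windows. CCAAT was found in 19 of the 29 member windows (19 members), in 37.4% of all windows and in 38.0% of the 12628 windows of genes tested here. GGGCGG was found in 23 of the 29 member windows (20 members), in 35.7% of all windows and in 60.6% of those of tested genes. A match describes the letters in this window only.

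Library totals ran from 13835979 to 23284932 counts, and the count behind a member in 1 library ran from 177 for Insig2 to 7285 for Npc2. All 10 myeloid leukemia markers were present in every library (14.1 to 696 CPM, counts scaled to library size), while 3 of 5 T and B cell markers and 3 of 5 fibroblast and endothelial markers were at 0 throughout and the rest of both lists reached at most 0.897 CPM. Erythroid markers reached at most 1.56 CPM. Of the megakaryocyte markers Itga2b was present in every library, with a group mean of 7.57 CPM in intact BE under vehicle and 11.4 to 13.5 CPM in the other 5 groups. The summed group mean of the myeloid list ran from 2000 to 2310 CPM, and within it Kit ran from 105 with nCas9 to 185 with intact BE under rapamycin, and Mpo from 178 with nCas9 to 331 with the catalytic mutant. The mitochondrial share of counts differed between constructs, at 1.88 ± 0.126% (SD, n = 3) with intact BE under vehicle, 3.19 ± 0.797% with seBE under vehicle, 4.53 ± 0.879% with the catalytic mutant and 5.10 ± 0.585% with nCas9. The slope of log2 level on gene length, per doubling of length, also moved with the construct, from -0.0588 with nCas9 to 0.0495 with intact BE under vehicle. Library 2 of nCas9 stood apart on the second principal component, outside the range of -24.5 to 21.5 that the other 17 spanned. The part of these markers and of the mitochondrial share in the differences below was not tested, and values with the length trend removed are given where they end the call of a member.

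Per kilobase of exon, the members differed widely in level. Npc2, a lysosomal cholesterol carrier, was highest at a mean of 55.1 CPM per kb over the 18 libraries, followed by the lanosterol demethylase gene Cyp51 at 48.2 and the thiolase gene Acat2 at 46.3. Fdps, the farnesyl diphosphate synthase gene, was lowest at 3.61 CPM per kb. The Fdps value is uncertain, since its exons share 1124 bases with another annotated gene on the same strand. Exons shared on the same strand also touch Tm7sf2 (532 bases with Vps51) and Mbtps2 (2867 bases with Yy2, which had no counts). Exons of Fdft1, Npc1, Ggps1, Cyp51, Hmgcs1, Scap, Idi1 and Lss overlap a gene on the opposite strand, and because the strand setting of the authors' count is not given, reads of those stretches cannot be told apart.

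The members were at their highest with intact BE under vehicle and at their lowest with seBE. Together they took 0.337 ± 0.018% of all counts with intact BE under vehicle, 0.3 ± 0.0057% with nCas9, 0.289 ± 0.016% with intact BE under rapamycin, 0.28 ± 0.011% with the catalytic mutant, 0.265 ± 0.0091% with seBE under vehicle and 0.251 ± 0.011% with seBE under rapamycin (SD, n = 3 each). The 3 intact BE vehicle libraries, at 0.32 to 0.355%, lay above all 15 others, of which the highest were at 0.305%. Below them, neighbours in that order overlapped, nCas9 with intact BE under rapamycin, the latter with the catalytic mutant, the mutant with seBE under vehicle, and the seBE groups with each other. By group mean, 17 of the 28 genes were highest with intact BE under vehicle, 7 with nCas9, 2 with the catalytic mutant and 2 with intact BE under rapamycin. The lowest group mean was that of seBE under rapamycin for 15 genes, the catalytic mutant for 7 and intact BE under rapamycin for 4. The heat map of levels by library shows both blocks. These are bulk libraries, in which fewer cells with a transcript and less of it per cell cannot be told apart.

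**Figure D1:**
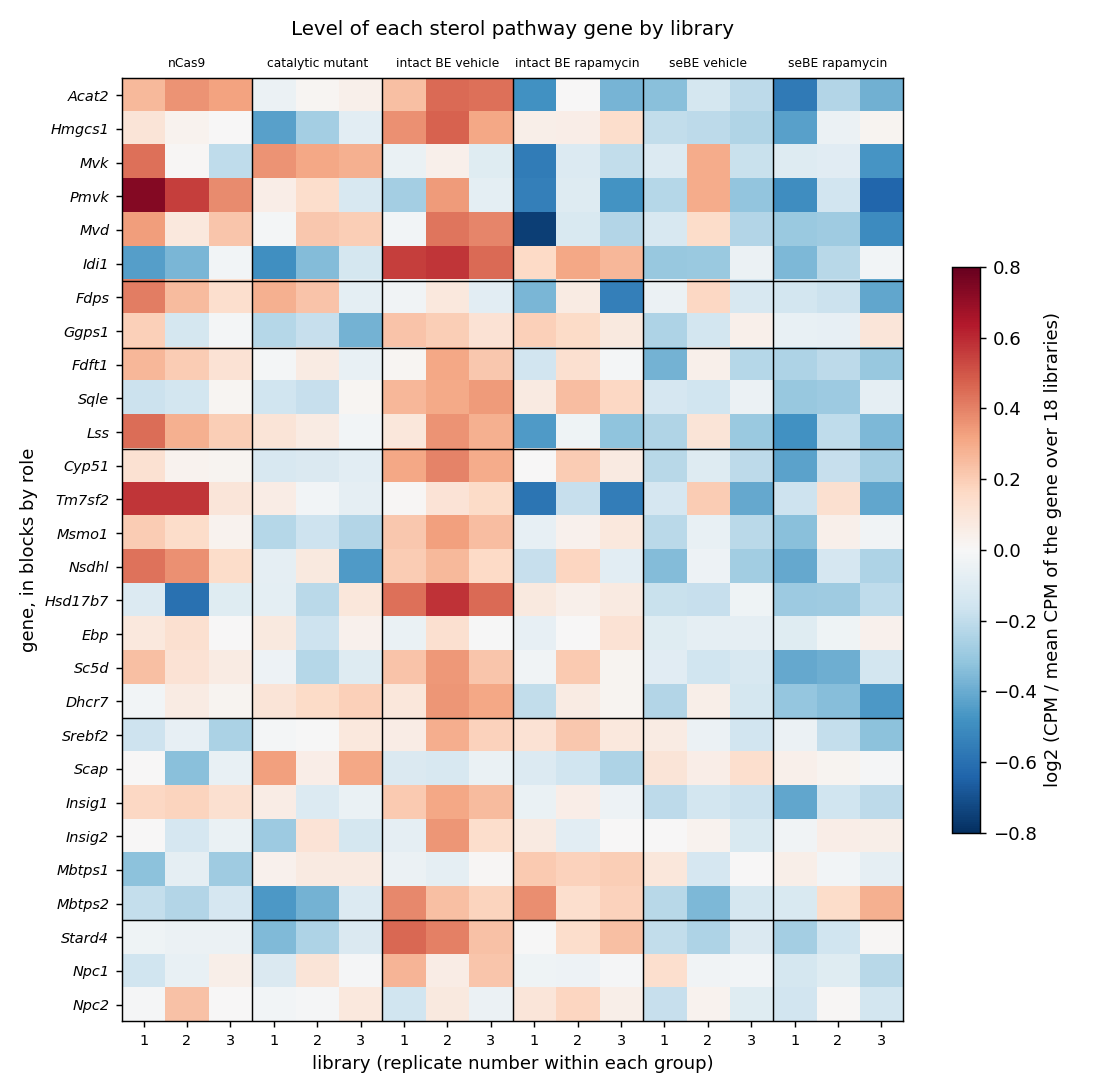
Level of each of the 28 genes (rows, in blocks by role) in each of the 18 libraries (columns, in 6 groups), as log2 of the CPM over the gene's mean CPM across all libraries. The intact BE vehicle libraries are mostly red, the seBE libraries mostly blue, and Mvk, Pmvk, Fdps and Tm7sf2 are instead highest in the nCas9 or catalytic mutant libraries.

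A gene was called in a comparison when edgeR's quasi-likelihood test, fitted across all 14985 genes, gave an adjusted p under 0.05. Across 9 comparisons, 22 of the 28 genes were called at least once and 6 never (Mvk, Fdps, Ebp, Insig2, Npc1 and Npc2). Several comparisons share libraries, above all those of intact BE under vehicle, so their counts are not independent of each other.

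With intact BE under vehicle against nCas9, 9 members were higher and 1 lower, where 23.0% of all genes were called (13.1% higher and 9.83% lower). The 9 were the synthesis genes Hmgcs1, Idi1, Sqle, Cyp51, Hsd17b7 and Dhcr7, the SREBP genes Srebf2 and Mbtps2, and the sterol carrier gene Stard4, and the gene that was lower was Pmvk. Their median log2 fold change over all 28 was 0.131, against -0.0366 over all genes. Against the catalytic mutant, whose deaminase is inactive, intact BE under vehicle had 13 members higher and 1, Scap, lower, where 21.0% of all genes were called (11.6% higher and 9.33% lower). The median there was 0.219 against -0.0253. Between the 2 control constructs, the catalytic mutant had 2 members higher than nCas9 (Scap and Mbtps1) and 3 lower (Hmgcs1, Msmo1 and Nsdhl), where 4.30% of all genes were called (2.24% higher and 2.06% lower). No call of the mutant against nCas9 held in all 6 fits that each left out 1 library. The count there fell to 1 without any of nCas9 replicates 1 and 2 and mutant replicates 1 and 3.

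With seBE under vehicle against intact BE under vehicle, 15 members were lower and 0 higher, where 3.99% of all genes were called (2.32% lower and 1.68% higher). The 15 cover all 3 genes from farnesyl diphosphate to lanosterol, 6 of 8 from lanosterol to cholesterol, 3 of 6 mevalonate genes, Insig1, Mbtps2 and Stard4. Their median log2 fold change over all 28 was -0.361, against 0.00837 over all genes. In 15 members the 3 seBE libraries all lay below the 3 intact BE libraries and in 1 all lay above, where 15.0% and 14.4% of all genes did so (29.4% in all). The count over all genes rested on single libraries more than that of the members: without intact BE vehicle replicate 1 or seBE vehicle replicate 2, 47 and 49 genes were called in place of 598, and 12 members each time. Against nCas9, seBE under vehicle had 7 members lower and 0 higher (Acat2, Fdft1, Lss, Tm7sf2, Msmo1, Nsdhl and Insig1), where 4.56% of all genes were called (1.93% lower and 2.64% higher). The median was -0.158 against -0.0103. The count against nCas9 fell to 1, Acat2, without seBE vehicle replicate 1.

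Rapamycin on intact BE cells left 5 members lower and 0 higher (Acat2, Mvd, Lss, Hsd17b7 and Insig1), where 3.32% of all genes were called (1.34% lower and 1.98% higher). The fold change was below 0 for 26 of the 28, with a median of -0.239 against -0.00362 over all genes. In 15 members the 3 rapamycin libraries all lay below the 3 vehicle libraries and in 1 all lay above, where 11.8% and 10.5% of all genes did so (22.3% in all). The count moved with the setting: it was 1 without rapamycin replicate 1, 2 without vehicle replicate 2, 3 without vehicle replicate 3 and 8 without rapamycin replicate 2. It was 10 by DESeq2 (9 lower and 1 higher) and 9, all lower, without the low-count filter. In the compared libraries alone it was 11 (10 lower and 1 higher), and with a replicate block 12, all lower. Over all genes these settings called 718, 585, 849 and 707, in that order. The 1 higher was Mbtps1 both times. Of members not called here, Hmgcs1, Tm7sf2 and Dhcr7 passed as lower in all of these settings. Cyp51 did so in all but the fit without the filter. None of these members passed with the length trend removed. Rapamycin on seBE cells gave no call among the members, and 0 of all 14985 genes were called by edgeR (percent called 0), with 493 at an unadjusted p under 0.05 and 1 called by DESeq2. The median over the members was -0.0796 against 0.00115. The difference between the drug effects in seBE and in intact BE passed for no member in edgeR's interaction test, which called 28 genes in all (0.187%, with 0.0734% higher and 0.113% lower), had 1044 genes at an unadjusted p under 0.05 and, by DESeq2, called 75 genes and 0 members. The interaction was above 0 for 24 of the 28 members, with a median of 0.132 against 0.00666, and the smallest adjusted p among them was 0.203, for Acat2 (log2 0.49 ± 0.135 SE). Acat2 did pass without the low-count filter (adjusted p = 0.0253) and with a replicate block (0.0184), and also without seBE rapamycin replicate 1, where Hmgcs1 passed too, or intact BE rapamycin replicate 2. Under rapamycin, seBE had 7 members lower than intact BE and 0 higher (Idi1, Sqle, Cyp51, Sc5d, Dhcr7, Srebf2 and Insig1), where 4.69% of all genes were called (2.66% lower and 2.04% higher). That count was 3 without seBE rapamycin replicate 2.

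**Figure D2:**
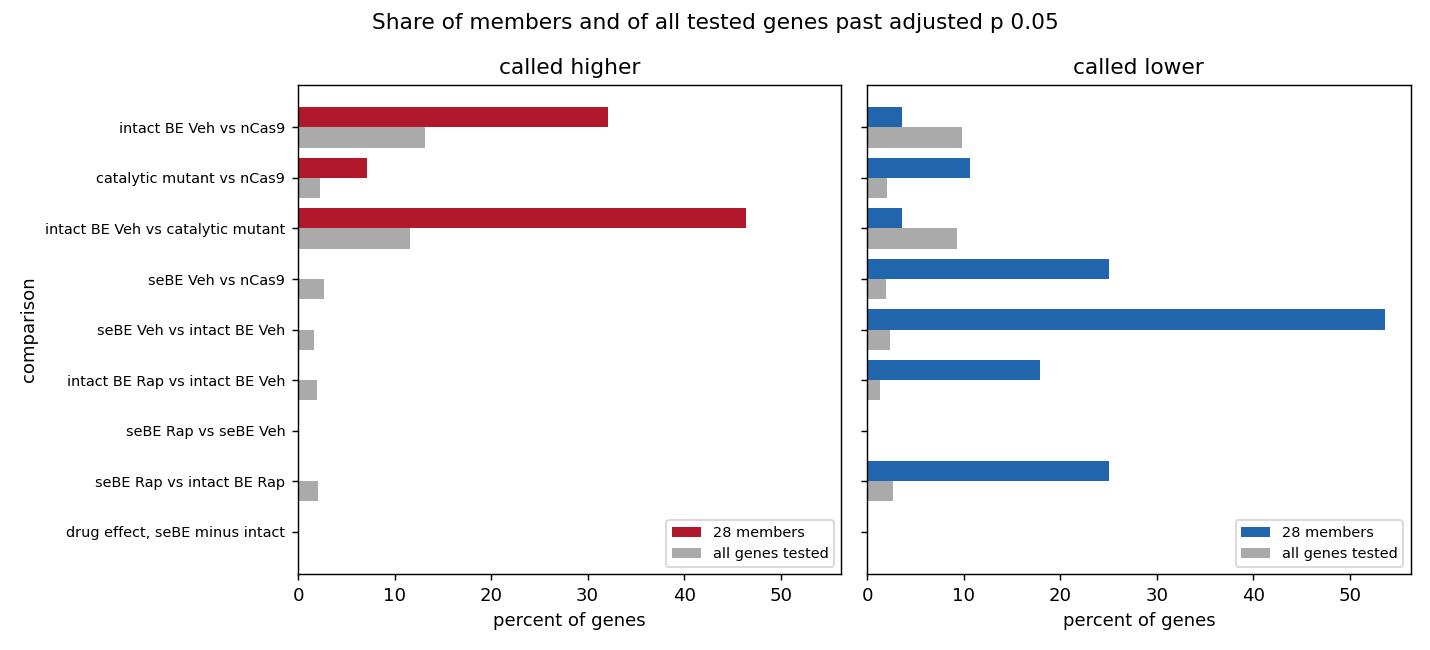
Percent of the 28 members and of all 14985 tested genes called higher (left) and lower (right) in each of the 9 comparisons, at an adjusted p under 0.05 by edgeR. The longest bars of the members are the 53.6% called lower with seBE against intact BE under vehicle and the 46.4% called higher with intact BE against the catalytic mutant.

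The share of members called is set beside the same share of all genes in the bar chart by comparison. In the comparison of seBE with intact BE it was 53.6% lower against 2.32%, and in that of intact BE with nCas9 it was 32.1% higher against 13.1%. Since the members were chosen with earlier results of these data known, these shares describe the list and are no test of it. The plot of fold changes by gene gives the members one by one for 4 of the comparisons.

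**Figure D3:**
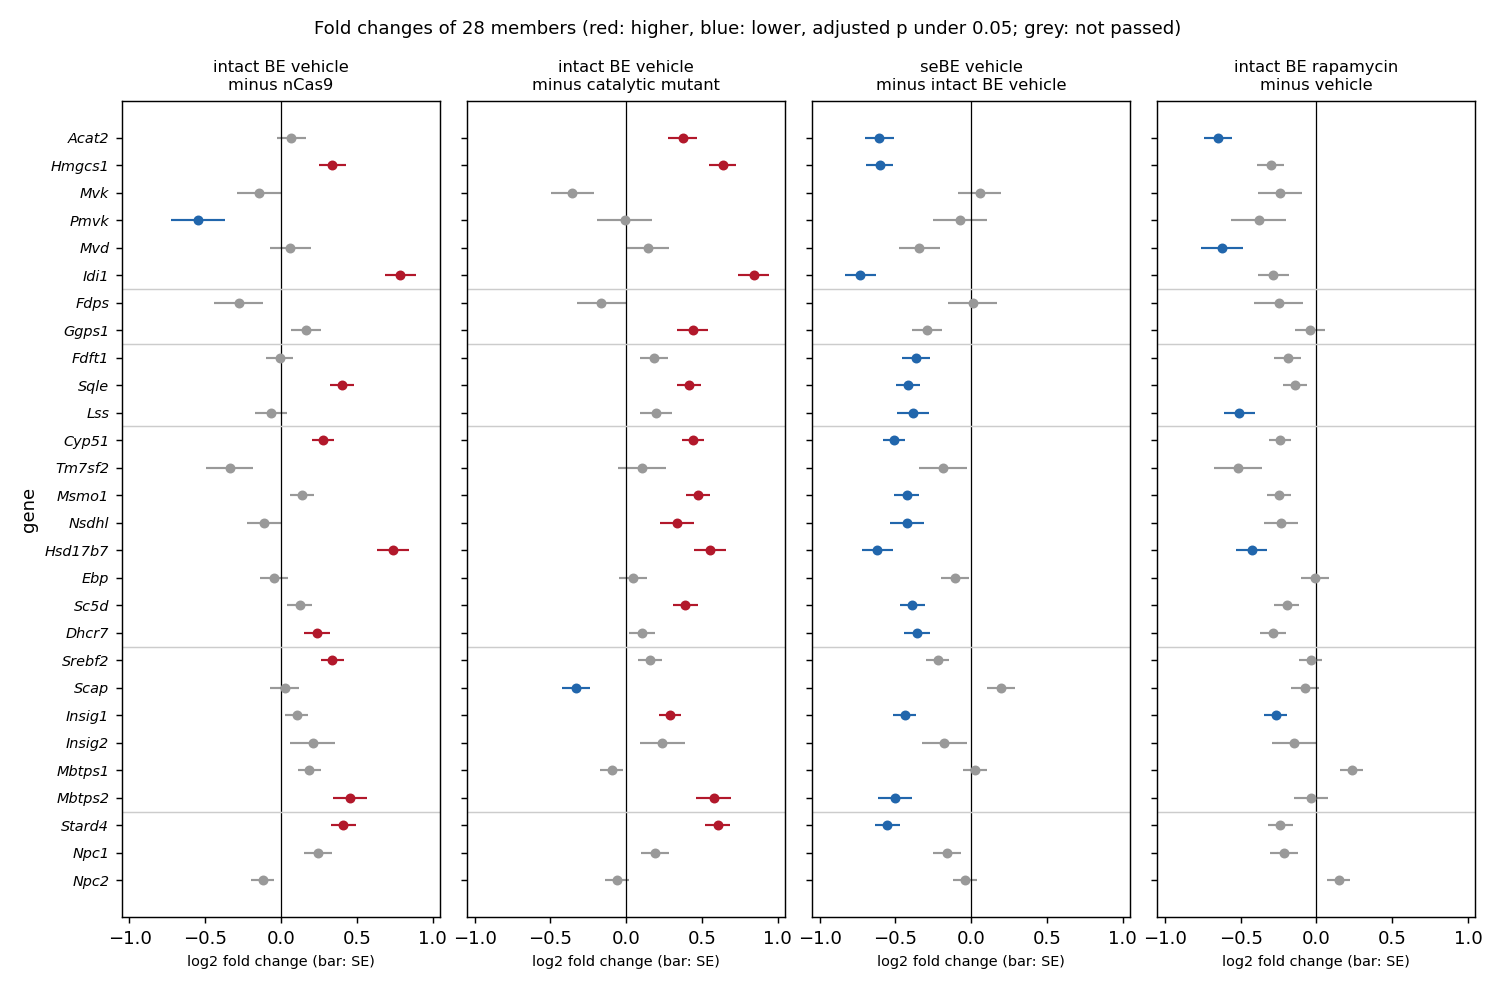
Log2 fold change of each of the 28 members (points) with its SE (bars) in 4 comparisons, red where called higher, blue where called lower and grey where not called. Idi1 has the largest fold change with intact BE against the catalytic mutant (0.84) and the lowest with seBE against intact BE (-0.73).

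Among the 6 genes that lead from acetyl-CoA to the first isoprenoid units, Idi1, Hmgcs1 and Acat2 gave most of the calls. All levels that follow are in CPM, with replicates in the order 1, 2 and 3. Idi1 encodes isopentenyl diphosphate isomerase. Idi1 stood at 85.1, 89.9 and 114 with nCas9, at 82.3, 91.1 and 105 with the catalytic mutant, at 170, 172 and 158 with intact BE under vehicle, at 129, 143 and 139 with intact BE under rapamycin, at 93.7, 94.2 and 112 with seBE under vehicle, and at 90.3, 99.0 and 114 with seBE under rapamycin. The intact BE vehicle libraries were all above the 15 others, the intact BE rapamycin libraries came next and above the 12 without intact BE, and those 12 overlapped. Idi1 was higher with intact BE under vehicle than with nCas9 by log2 0.79 ± 0.101 (SE, adjusted p = 1.93e-06) and than with the catalytic mutant by 0.84 ± 0.102 (adjusted p = 3.94e-06). It was lower with seBE than with intact BE, under vehicle by log2 -0.73 ± 0.101 (adjusted p = 7.86e-05) and under rapamycin by -0.44 ± 0.10 (adjusted p = 0.00813). The call under rapamycin ended without seBE rapamycin replicate 1 (adjusted p = 0.0539) or 2 (0.0524). Rapamycin on intact BE cells gave -0.29, which was not called here but was without the low-count filter (0.0335), in the compared libraries alone (0.0116) and with a replicate block (0.0265).

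Hmgcs1 encodes the cytosolic HMG-CoA synthase. Hmgcs1 stood at 179, 170 and 167 with nCas9, at 123, 138 and 157 with the catalytic mutant, at 215, 231 and 206 with intact BE under vehicle, at 172, 173 and 184 with intact BE under rapamycin, at 145, 144 and 141 with seBE under vehicle, and at 123, 161 and 169 with seBE under rapamycin. The intact BE vehicle libraries were again above all 15 others, and the seBE vehicle libraries, within 141 to 145, were below those of nCas9 and inside the range of the catalytic mutant. Hmgcs1 was higher with intact BE under vehicle than with nCas9 (log2 0.34 ± 0.0891, adjusted p = 0.00517) and than with the catalytic mutant (0.64 ± 0.0899, adjusted p = 2.02e-05). With seBE it was lower than with intact BE under vehicle, at -0.60 ± 0.0897 (adjusted p = 0.000184). With the catalytic mutant it was lower than with nCas9 at the edge of the threshold (-0.30 ± 0.0898, adjusted p = 0.0492). This last call ended in the fit of the compared libraries alone (0.0603) and without any of nCas9 replicates 1, 2 and 3 and mutant replicates 1 and 2 (0.0594 to 0.255). Against nCas9, seBE under vehicle was not called here. It did pass as lower without the low-count filter (0.0450), in the compared libraries alone (0.0263) and with a replicate block (0.0372).

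Acat2 encodes the cytosolic acetoacetyl-CoA thiolase, which supplies HMG-CoA synthase. Acat2 stood at 141, 151 and 147 with nCas9, at 114, 119 and 121 with the catalytic mutant, at 139, 161 and 160 with intact BE under vehicle, at 84.3, 118 and 90.9 with intact BE under rapamycin, at 93.5, 107 and 102 with seBE under vehicle, and at 79.6, 100 and 90.3 with seBE under rapamycin. Its pattern differed from that of Idi1: nCas9 and intact BE under vehicle overlapped at the top, the catalytic mutant lay below both, and the seBE and rapamycin libraries lay lower still, with rapamycin replicate 2 of intact BE at 118. Acat2 was lower with seBE than with nCas9 (log2 -0.54 ± 0.0956, adjusted p = 0.00118) and than with intact BE under vehicle (-0.61 ± 0.0957, adjusted p = 0.000353). It was lower after rapamycin in intact BE cells by log2 -0.65 ± 0.0954 (adjusted p = 2.97e-05), the 1 rapamycin call among the members that held without each library in turn. With intact BE under vehicle it was higher than with the catalytic mutant (0.37 ± 0.0953, adjusted p = 0.00441). The mutant was not called against nCas9 here. It did pass as lower by DESeq2 (0.0438), without the low-count filter (0.0165) and in the compared libraries alone (0.0307). It also passed with a replicate block (0.00983) and with the length trend removed (0.0385). In seBE cells rapamycin gave -0.16, which was not called.

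The kinase and decarboxylase genes between these steps moved little or in other ways. Pmvk stood at 85.3, 75.2 and 66.6 with nCas9, at 53.0, 56.4 and 46.9 with the catalytic mutant, at 42.3, 64.8 and 48.5 with intact BE under vehicle, at 35.0, 47.6 and 36.8 with intact BE under rapamycin, at 43.6, 62.9 and 41.1 with seBE under vehicle, and at 36.2, 46.0 and 33.0 with seBE under rapamycin. Phosphomevalonate kinase, its product, acts after mevalonate kinase, and the nCas9 libraries were above the 15 others. Pmvk was lower with intact BE under vehicle than with nCas9 (log2 -0.55 ± 0.178, adjusted p = 0.0326), and that call ended with the length trend removed (0.0759) and without any of intact BE vehicle replicates 1 and 3 and nCas9 replicates 1 and 2 (0.0842 to 0.142). Against nCas9, seBE under vehicle was not called here. It did pass as lower by DESeq2 (0.0368), without the low-count filter (0.000135) and in the compared libraries alone (0.00716). It also passed with a replicate block (0.000120) and with the length trend removed (0.0458). The catalytic mutant passed as lower than nCas9 without the filter (0.00143), in the compared libraries alone (0.00932) and with the block (0.00109). Mvd encodes the decarboxylase that makes isopentenyl diphosphate. Mvd stood at 84.6, 71.4 and 78.4 with nCas9, at 66.4, 78.0 and 77.0 with the catalytic mutant, at 66.1, 90.6 and 88.1 with intact BE under vehicle, at 39.9, 61.9 and 57.1 with intact BE under rapamycin, at 61.6, 74.4 and 57.1 with seBE under vehicle, and at 54.8, 55.3 and 47.4 with seBE under rapamycin. The intact BE rapamycin libraries were all below those under vehicle, by a margin set by rapamycin replicate 2 at 61.9 and vehicle replicate 1 at 66.1. Mvd was lower after rapamycin by -0.62 ± 0.137 (adjusted p = 0.00907), a call that ended in the fit of the compared libraries alone (0.0890) and without rapamycin replicate 1 (0.0529), vehicle replicate 2 (0.0660) or vehicle replicate 3 (0.0626). Mvk, the mevalonate kinase gene, ran from 23.0 to 46.0 CPM and was not called, although intact BE against the catalytic mutant was called lower without the low-count filter (0.0289), in the compared libraries alone (0.00692) and with a replicate block (0.0442).

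**Figure D4:**
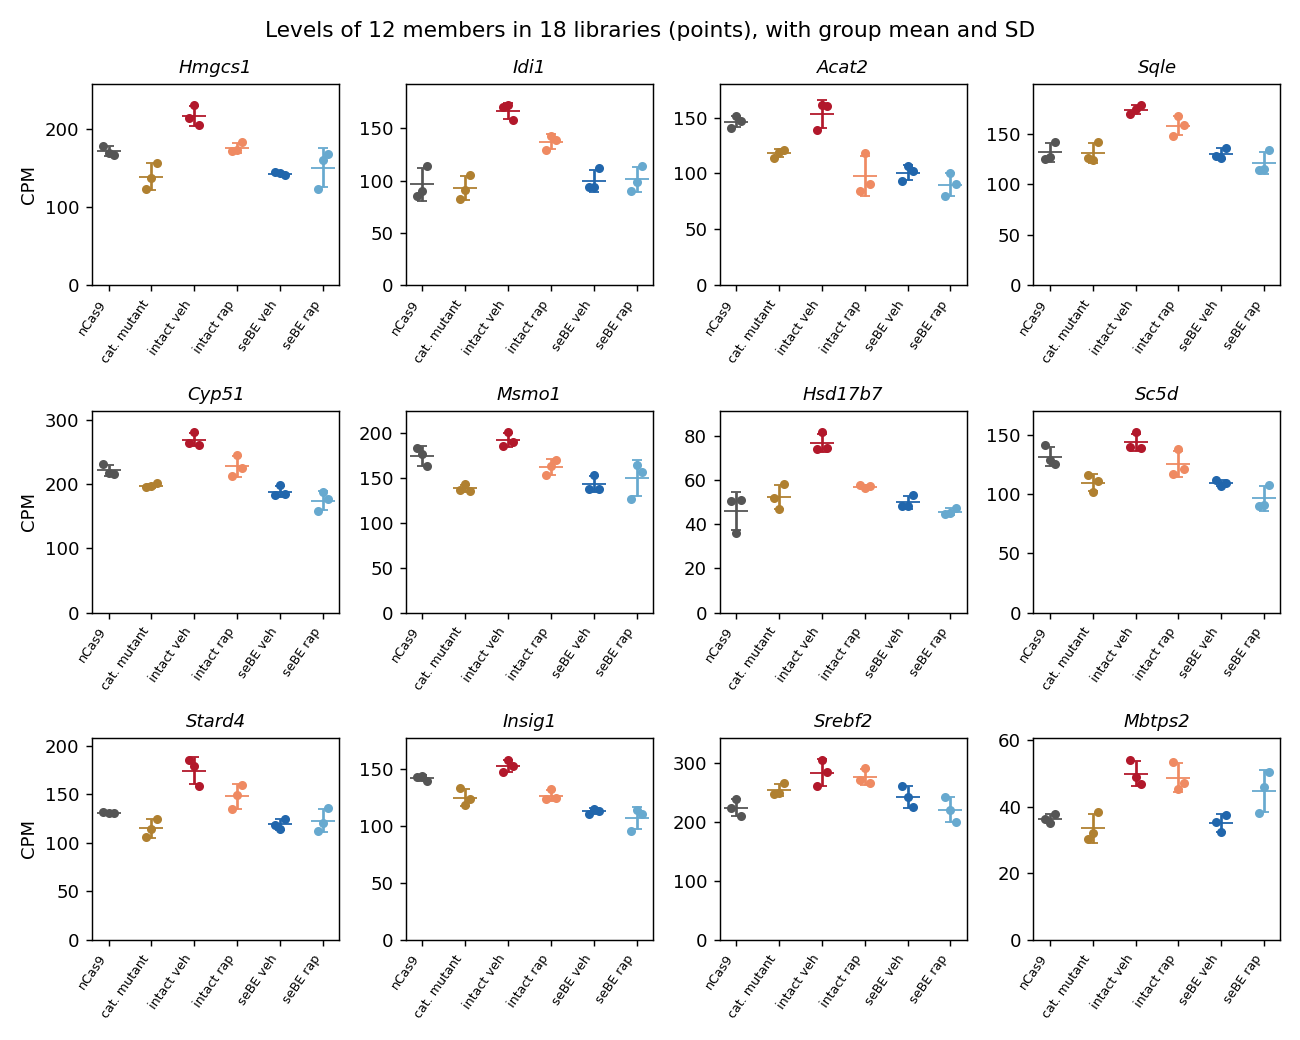
CPM in each of the 18 libraries (points) with the group mean and SD (lines) for 12 members, each panel with its own axis from 0. In Idi1, Hmgcs1, Sqle, Cyp51 and Hsd17b7 the 3 intact BE vehicle libraries lie above all 15 others, while Acat2 and Insig1 of nCas9 reach or nearly reach them.

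The plot of levels in 12 members shows these differences by library. Of the 2 prenyl diphosphate synthase genes, Fdps was called nowhere, with group means from 12.7 to 18.3 CPM. Ggps1 makes geranylgeranyl diphosphate, which is used to modify small GTPases. Ggps1 stood at 55.1, 43.8 and 47.7 with nCas9, at 41.3, 42.5 and 37.2 with the catalytic mutant, at 56.6, 55.3 and 52.3 with intact BE under vehicle, at 55.1, 53.7 and 50.9 with intact BE under rapamycin, at 40.7, 43.7 and 49.6 with seBE under vehicle, and at 46.4, 46.1 and 51.6 with seBE under rapamycin. The mutant libraries were below all of intact BE and of nCas9, and nCas9 overlapped intact BE. Ggps1 was higher with intact BE under vehicle than with the catalytic mutant (log2 0.44 ± 0.101, adjusted p = 0.00181). It was called in no other comparison, although seBE against intact BE under vehicle passed by DESeq2 (0.0445) and in the compared libraries alone (0.0297).

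All 3 genes that lead from farnesyl diphosphate to lanosterol were lower with seBE than with intact BE under vehicle, but only Sqle was also called higher with intact BE than with nCas9 or the catalytic mutant. Sqle encodes squalene epoxidase, a rate-limiting enzyme of the sterol branch. Sqle stood at 125, 127 and 142 with nCas9, at 126, 124 and 142 with the catalytic mutant, at 169, 174 and 178 with intact BE under vehicle, at 148, 167 and 158 with intact BE under rapamycin, at 128, 126 and 136 with seBE under vehicle, and at 114, 115 and 134 with seBE under rapamycin. The intact BE vehicle libraries were above the 15 others, the rapamycin ones followed, and the remaining 4 groups overlapped between 114 and 142. Sqle was higher with intact BE under vehicle than with nCas9 (log2 0.40 ± 0.0788, adjusted p = 0.000298) and than with the catalytic mutant (0.41 ± 0.0790, adjusted p = 0.000366). It was lower with seBE than with intact BE, by -0.42 ± 0.0789 under vehicle (adjusted p = 0.00274) and -0.38 ± 0.0785 under rapamycin (adjusted p = 0.00306). These 4 calls held without each library in turn.

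Fdft1 encodes squalene synthase. Fdft1 stood at 126, 121 and 114 with nCas9, at 104, 110 and 101 with the catalytic mutant, at 106, 130 and 122 with intact BE under vehicle, at 94.5, 115 and 104 with intact BE under rapamycin, at 80.7, 108 and 89.6 with seBE under vehicle, and at 88.5, 90.9 and 85.3 with seBE under rapamycin. The seBE rapamycin libraries were the lowest as a group, and seBE vehicle replicate 2, at 108, lay inside the range of intact BE under vehicle. Fdft1 was lower with seBE than with nCas9 (log2 -0.37 ± 0.0912, adjusted p = 0.0144) and than with intact BE (-0.36 ± 0.0913, adjusted p = 0.0216). The first call ended without nCas9 replicates 1 or 2 or seBE vehicle replicates 1 or 3 (0.0659 to 0.176), and the second without intact BE vehicle replicates 2 or 3 or seBE vehicle replicates 1 or 3 (0.0592 to 0.119). Lss encodes lanosterol synthase. Lss stood at 168, 150 and 141 with nCas9, at 132, 129 and 121 with the catalytic mutant, at 131, 158 and 150 with intact BE under vehicle, at 89.9, 120 and 98.4 with intact BE under rapamycin, at 104, 132 and 100 with seBE under vehicle, and at 87.8, 107 and 95.8 with seBE under rapamycin. The group means were highest with nCas9 and with intact BE under vehicle, and seBE vehicle replicate 2, at 132, overlapped the latter. Lss was lower with seBE than with nCas9 (-0.45 ± 0.104, adjusted p = 0.0109) and than with intact BE (-0.38 ± 0.104, adjusted p = 0.0340), and lower after rapamycin in intact BE cells (-0.51 ± 0.104, adjusted p = 0.00329). The first of these ended without nCas9 replicates 1 or 2 or seBE vehicle replicates 1 or 3 (0.0537 to 0.108), the second without any library but seBE vehicle replicate 2 (0.0621 to 0.140) and with the length trend removed (0.194), and the third without rapamycin replicate 1 (0.0514).

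From lanosterol to cholesterol, 8 genes were measured: 5 were higher with intact BE than with the catalytic mutant and 6 were lower with seBE than with intact BE under vehicle. Cyp51 encodes the lanosterol 14-alpha demethylase. Cyp51 stood at 231, 217 and 216 with nCas9, at 195, 196 and 201 with the catalytic mutant, at 264, 280 and 261 with intact BE under vehicle, at 213, 245 and 224 with intact BE under rapamycin, at 182, 198 and 184 with seBE under vehicle, and at 158, 187 and 176 with seBE under rapamycin. Intact BE under vehicle was above all other libraries, and the mutant and seBE libraries were below every nCas9 library. Cyp51 was higher with intact BE than with nCas9 (log2 0.28 ± 0.0725, adjusted p = 0.00473) and than with the catalytic mutant (0.44 ± 0.0728, adjusted p = 9.95e-05). With seBE it was lower than with intact BE under vehicle (-0.51 ± 0.0729, adjusted p = 9.85e-05) and under rapamycin (-0.39 ± 0.0726, adjusted p = 0.00111), and all 4 calls held without each library in turn. Against nCas9, seBE under vehicle was not called here. It did pass as lower by DESeq2 (0.0214), with a replicate block (0.0247) and with the length trend removed (0.0425).

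Hsd17b7 encodes the 3-keto-steroid reductase that acts with Nsdhl in removing the C-4 methyl groups. Hsd17b7 stood at 50.5, 36.1 and 51.0 with nCas9, at 51.6, 46.9 and 58.1 with the catalytic mutant, at 73.9, 81.4 and 74.5 with intact BE under vehicle, at 57.5, 56.1 and 57.2 with intact BE under rapamycin, at 48.1, 48.0 and 53.3 with seBE under vehicle, and at 44.6, 44.8 and 47.3 with seBE under rapamycin. The intact BE vehicle libraries stood alone at the top and the intact BE rapamycin libraries lay close together, overlapping the catalytic mutant through its replicate 3. Hsd17b7 was higher with intact BE under vehicle than with nCas9 (log2 0.74 ± 0.105, adjusted p = 6.04e-06) and than with the catalytic mutant (0.55 ± 0.105, adjusted p = 0.000320). It was lower with seBE than with intact BE under vehicle (-0.62 ± 0.104, adjusted p = 0.000739) and lower after rapamycin in intact BE cells (-0.43 ± 0.103, adjusted p = 0.0125). The rapamycin call ended without rapamycin replicate 1 (0.0549) or vehicle replicate 2 (0.102). Under rapamycin, seBE against intact BE was not called here. It did pass as lower by DESeq2 (0.0447), without the low-count filter (0.0461) and with a replicate block (0.0356).

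Msmo1 encodes the C-4 methylsterol oxidase, the first enzyme of that demethylation. Msmo1 stood at 184, 177 and 163 with nCas9, at 137, 143 and 136 with the catalytic mutant, at 186, 201 and 190 with intact BE under vehicle, at 153, 164 and 170 with intact BE under rapamycin, at 138, 154 and 138 with seBE under vehicle, and at 127, 165 and 157 with seBE under rapamycin. Every mutant and seBE vehicle library was below every nCas9 and intact BE vehicle library. Msmo1 was higher with intact BE under vehicle than with the catalytic mutant (log2 0.47 ± 0.0820, adjusted p = 0.000145), and lower with seBE than with intact BE (-0.42 ± 0.0818, adjusted p = 0.00307). Against nCas9 it was lower with the catalytic mutant (-0.33 ± 0.0820, adjusted p = 0.0141) and with seBE (-0.29 ± 0.0818, adjusted p = 0.0364), and was not called with intact BE. The mutant call ended without nCas9 replicates 1 or 2 or mutant replicates 1 or 3 (0.0507 to 0.0738), and the seBE call without nCas9 replicates 1 or 2 or seBE vehicle replicates 1 or 3 (0.131 to 0.209).

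Nsdhl encodes the C-4 decarboxylating sterol dehydrogenase. Nsdhl stood at 85.1, 81.2 and 69.8 with nCas9, at 60.0, 66.6 and 46.0 with the catalytic mutant, at 72.6, 75.2 and 70.3 with intact BE under vehicle, at 55.5, 71.0 and 59.3 with intact BE under rapamycin, at 49.5, 61.2 and 52.0 with seBE under vehicle, and at 47.5, 57.4 and 53.1 with seBE under rapamycin. It had a similar order, with mutant replicate 3 the lowest of all. Nsdhl was lower than with nCas9 both with the catalytic mutant (log2 -0.45 ± 0.113, adjusted p = 0.0166) and with seBE (-0.54 ± 0.113, adjusted p = 0.00498). With intact BE under vehicle it was higher than with the catalytic mutant (0.34 ± 0.113, adjusted p = 0.0311), and with seBE it was lower than with intact BE (-0.42 ± 0.113, adjusted p = 0.0310). None of these 4 held in every fit that left out a library: the mutant call against nCas9 ended without nCas9 replicates 1 or 2 or mutant replicate 3 (0.0853 to 0.130), and the seBE call against nCas9 without seBE vehicle replicate 1 (0.0641). The call against the mutant ended without intact BE vehicle replicates 1 or 2 or mutant replicates 1 or 3 (0.0527 to 0.251), and the call of seBE against intact BE without any 1 of the 6 libraries (0.0530 to 0.141).

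Sc5d encodes the lathosterol C-5 desaturase. Sc5d stood at 141, 129 and 125 with nCas9, at 116, 102 and 111 with the catalytic mutant, at 140, 152 and 139 with intact BE under vehicle, at 117, 138 and 121 with intact BE under rapamycin, at 112, 107 and 109 with seBE under vehicle, and at 89.9, 90.9 and 108 with seBE under rapamycin. The mutant and seBE vehicle libraries were below all of nCas9 and intact BE under vehicle. Sc5d was higher with intact BE under vehicle than with the catalytic mutant (log2 0.39 ± 0.0824, adjusted p = 0.000872). With seBE it was lower than with intact BE under vehicle (-0.39 ± 0.0823, adjusted p = 0.00778) and under rapamycin (-0.38 ± 0.0819, adjusted p = 0.00473), and the vehicle call ended without intact BE vehicle replicate 2 (0.0513) or seBE vehicle replicate 2 (0.0656). Against nCas9 neither the mutant nor seBE under vehicle was called here. The mutant passed as lower by DESeq2 (0.0291), with a replicate block (0.0367) and with the length trend removed (0.0365). So did seBE (0.0261, 0.0339 and 0.0374), which also passed in the compared libraries alone (0.0368).

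Dhcr7 encodes the 7-dehydrocholesterol reductase, the last enzyme of one branch. Dhcr7 stood at 102, 108 and 105 with nCas9, at 111, 115 and 118 with the catalytic mutant, at 110, 132 and 128 with intact BE under vehicle, at 90.2, 108 and 105 with intact BE under rapamycin, at 88.0, 107 and 93.6 with seBE under vehicle, and at 83.4, 81.5 and 75.3 with seBE under rapamycin. The seBE rapamycin libraries were below the 15 others. Dhcr7 was higher with intact BE under vehicle than with nCas9 (log2 0.24 ± 0.0851, adjusted p = 0.0406), and lower with seBE than with intact BE under vehicle (-0.36 ± 0.0854, adjusted p = 0.0165) and under rapamycin (-0.34 ± 0.0853, adjusted p = 0.0156). The first call ended with the length trend removed (0.164) and without any library but intact BE vehicle replicate 1 (0.0638 to 0.188). The second ended without seBE vehicle replicate 1 or intact BE vehicle replicates 2 or 3 (0.0568 to 0.0894), and the third in the fit of the compared libraries alone (0.0586) and without intact BE rapamycin replicates 2 or 3 or seBE rapamycin replicate 2 (0.0521 to 0.0841).

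Tm7sf2 encodes one of the C-14 sterol reductases. Tm7sf2 stood at 33.0, 33.0 and 23.7 with nCas9, at 23.1, 21.8 and 21.1 with the catalytic mutant, at 22.3, 23.9 and 24.6 with intact BE under vehicle, at 14.8, 19.5 and 15.1 with intact BE under rapamycin, at 20.2, 25.5 and 16.7 with seBE under vehicle, and at 19.8, 24.2 and 16.6 with seBE under rapamycin. Replicates 1 and 2 of nCas9 were the highest, and replicate 3 of nCas9 lay inside the ranges of intact BE and seBE under vehicle. Tm7sf2 was lower with seBE under vehicle than with nCas9 (log2 -0.52 ± 0.156, adjusted p = 0.0455). That call ended in the fit of the compared libraries alone (0.0525) and without nCas9 replicates 1 or 2 or seBE vehicle replicates 1 or 3 (0.170 to 0.280). Ebp, the sterol isomerase gene, varied least of all 28, with group means from 48.4 to 53.9 CPM, and was called nowhere.

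The 6 genes of SREBP2 and its control did not move together. The gene of the factor itself was higher with intact BE than with nCas9, while the escort gene Scap was highest with the catalytic mutant. Srebf2 stood at 223, 238 and 209 with nCas9, at 247, 249 and 265 with the catalytic mutant, at 260, 305 and 284 with intact BE under vehicle, at 271, 290 and 265 with intact BE under rapamycin, at 261, 242 and 224 with seBE under vehicle, and at 242, 219 and 199 with seBE under rapamycin. Every intact BE vehicle library was above every nCas9 library, but its replicate 1, at 260, lay inside the range of the mutant libraries. Srebf2 was higher with intact BE under vehicle than with nCas9 (log2 0.34 ± 0.0781, adjusted p = 0.00160) and was not called against the catalytic mutant (0.16, adjusted p = 0.166). It was not called with seBE against intact BE under vehicle (-0.22, adjusted p = 0.0939), which did pass in the compared libraries alone (0.0451) and with a replicate block (0.0445), and was lower under rapamycin (-0.33 ± 0.0779, adjusted p = 0.0103), a call that ended without intact BE rapamycin replicate 2 (0.0528) or seBE rapamycin replicate 2 (0.0501). Rapamycin on intact BE cells gave -0.04 (adjusted p = 0.899).

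Scap stood at 59.8, 47.3 and 57.2 with nCas9, at 75.0, 61.8 and 73.9 with the catalytic mutant, at 55.1, 54.5 and 57.5 with intact BE under vehicle, at 55.2, 53.3 and 50.3 with intact BE under rapamycin, at 64.1, 62.0 and 65.6 with seBE under vehicle, and at 61.3, 60.5 and 59.2 with seBE under rapamycin. Mutant replicates 1 and 3 were the highest of all, and replicate 2 of nCas9 was the lowest. Scap was higher with the catalytic mutant than with nCas9 (log2 0.36 ± 0.0928, adjusted p = 0.0217) and lower with intact BE under vehicle than with the mutant (-0.33 ± 0.0930, adjusted p = 0.00908), with no call between intact BE and nCas9 (0.02, adjusted p = 0.893) or seBE and intact BE (0.20, adjusted p = 0.241). The first call ended in the fit of the compared libraries alone (0.0747) and without mutant replicate 1 (0.108), mutant replicate 3 (0.0894) or nCas9 replicate 2 (0.170). The second ended without mutant replicate 1 (0.0613).

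Insig1 is both a brake on SREBP2 and a target of it. Insig1 stood at 143, 144 and 139 with nCas9, at 133, 118 and 123 with the catalytic mutant, at 147, 158 and 152 with intact BE under vehicle, at 123, 132 and 124 with intact BE under rapamycin, at 110, 115 and 113 with seBE under vehicle, and at 95.4, 114 and 110 with seBE under rapamycin. The seBE vehicle libraries were below every nCas9 and intact BE library, rapamycin included, and the intact BE vehicle libraries were above all others. Insig1 was higher with intact BE under vehicle than with the catalytic mutant (log2 0.29 ± 0.0754, adjusted p = 0.00527) and not called against nCas9 (0.10, adjusted p = 0.362). With seBE it was lower than with nCas9 (-0.34 ± 0.0754, adjusted p = 0.00769) and than with intact BE under vehicle (-0.44 ± 0.0754, adjusted p = 0.000858). The nCas9 call ended without seBE vehicle replicate 1 (0.0680). It was also lower after rapamycin in intact BE cells (-0.27 ± 0.0749, adjusted p = 0.0347) and with seBE against intact BE under rapamycin (-0.25 ± 0.0751, adjusted p = 0.0498). The first of these ended without any library but rapamycin replicate 2 (0.0505 to 0.195) and with the length trend removed (0.0791). The second ended without any library but seBE rapamycin replicate 3 (0.0554 to 0.234), in the fit of the compared libraries alone, without (0.158) and with (0.0657) a replicate block, and without the filter on low counts (0.0793).

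Insig2, the other INSIG gene, was low and nearly level. Insig2 stood at 15.7, 14.3 and 15.1 with nCas9, at 12.8, 16.9 and 14.2 with the catalytic mutant, at 14.9, 20.0 and 17.3 with intact BE under vehicle, at 16.5, 14.8 and 15.7 with intact BE under rapamycin, at 15.7, 16.0 and 14.4 with seBE under vehicle, and at 15.4, 16.3 and 16.2 with seBE under rapamycin. All 6 groups overlapped, with replicate 2 of intact BE under vehicle the highest. It was not called against nCas9 (log2 0.21, adjusted p = 0.341), against the catalytic mutant (0.24, adjusted p = 0.291) or with seBE against intact BE (-0.18, adjusted p = 0.605).

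The 2 protease genes differed in pattern. Mbtps2 encodes the site-2 protease. Mbtps2 stood at 36.3, 35.2 and 37.7 with nCas9, at 30.1, 31.9 and 38.3 with the catalytic mutant, at 54.1, 48.8 and 46.8 with intact BE under vehicle, at 53.5, 45.4 and 47.1 with intact BE under rapamycin, at 35.5, 32.3 and 37.6 with seBE under vehicle, and at 38.0, 45.9 and 50.4 with seBE under rapamycin. The intact BE libraries, with and without rapamycin, were above all of nCas9, the mutant and seBE under vehicle, while seBE under rapamycin overlapped intact BE. Mbtps2 was higher with intact BE under vehicle than with nCas9 (log2 0.45 ± 0.112, adjusted p = 0.00290) and than with the catalytic mutant (0.58 ± 0.113, adjusted p = 0.000451), and lower with seBE than with intact BE under vehicle (-0.51 ± 0.112, adjusted p = 0.0107). The seBE call ended without intact BE vehicle replicate 1 (0.108) or seBE vehicle replicate 2 (0.127). Mbtps1 encodes the site-1 protease. Mbtps1 stood at 97.8, 117 and 101 with nCas9, at 126, 129 and 129 with the catalytic mutant, at 119, 117 and 124 with intact BE under vehicle, at 142, 140 and 141 with intact BE under rapamycin, at 131, 112 and 123 with seBE under vehicle, and at 127, 121 and 117 with seBE under rapamycin. The intact BE rapamycin libraries were the highest, and 2 of the 3 nCas9 libraries were the lowest. Mbtps1 was higher with the catalytic mutant than with nCas9 (0.28 ± 0.0768, adjusted p = 0.0291). Rapamycin on intact BE cells was not called but passed, as higher, by DESeq2 (0.0275) and in the compared libraries alone (0.0311), and intact BE against nCas9 passed without nCas9 replicate 2. The mutant call ended in the fit of the compared libraries alone (0.0688) and without any library but nCas9 replicate 2 (0.0604 to 0.131).

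Of the 3 transport genes, only Stard4 was called. It encodes a cytosolic protein that carries cholesterol between membranes. Stard4 stood at 132, 131 and 131 with nCas9, at 106, 114 and 125 with the catalytic mutant, at 186, 179 and 159 with intact BE under vehicle, at 135, 149 and 160 with intact BE under rapamycin, at 118, 114 and 125 with seBE under vehicle, and at 112, 121 and 136 with seBE under rapamycin. The intact BE vehicle libraries overlapped those under rapamycin only through vehicle replicate 3 and rapamycin replicate 3, and were above the other 12. Stard4 was higher with intact BE under vehicle than with nCas9 (log2 0.41 ± 0.0826, adjusted p = 0.000394) and than with the catalytic mutant (0.60 ± 0.0831, adjusted p = 1.63e-05), and lower with seBE than with intact BE (-0.55 ± 0.0829, adjusted p = 0.000184). These 3 calls held without each library in turn. Under rapamycin, seBE against intact BE was not called here. It did pass as lower by DESeq2 (0.0310), without the low-count filter (0.0413) and with a replicate block (0.0244). Npc1 and Npc2, which together export cholesterol from lysosomes, were called in no comparison, with group means from 45.8 to 58.0 CPM for Npc1 and from 280 to 322 CPM for Npc2. Npc1 passed for intact BE against nCas9 by DESeq2 (0.0443) and without intact BE vehicle replicate 2 or nCas9 replicate 3, and Npc2 for seBE against intact BE under rapamycin with a replicate block (0.0459).

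Genes around the pathway were read from lists of neighbouring functions. With intact BE under vehicle against nCas9, 23.0% of all genes were called (13.1% higher and 9.83% lower). The share was 4.56% for seBE against nCas9, 3.99% for seBE against intact BE under vehicle and 3.32% for rapamycin on intact BE. No list was tested against these shares. Of 5 genes that supply acetyl-CoA, 2 were higher and 0 lower with intact BE under vehicle than with nCas9: Acly, the ATP citrate lyase gene (log2 0.46 ± 0.0667, adjusted p = 7.29e-06), and Aacs, which activates acetoacetate (0.38 ± 0.0936, adjusted p = 0.00290). Acly was lower with seBE than with intact BE under vehicle, the 1 gene of that list so called. After rapamycin in intact BE cells 3 of the 5 were lower, led by the citrate carrier gene Slc25a1 (-0.39 ± 0.0864, adjusted p = 0.00551), but all 3 calls ended without rapamycin replicate 1 (0.0614 to 0.188) and without vehicle replicate 2 (0.0890 to 0.119). Of 11 further genes that act on SREBP, 4 were higher and 0 lower with intact BE under vehicle than with nCas9, among them Erlin1 (0.35 ± 0.0891, adjusted p = 0.00364), and 3 were higher and 0 lower with seBE than with nCas9, among them the ubiquitin ligase gene Rnf145 (0.47 ± 0.107, adjusted p = 0.00857). Of the 4, only Erlin1 held in every setting run, and removal of the length trend ended the calls of Rnf145 (0.184) and Erlin2 (0.0856). The 3 calls of seBE (Rnf145, Erlin1 and Erlin2) all ended without nCas9 replicate 1 (0.0687 to 0.148) and without seBE vehicle replicate 1 (0.0871 to 0.270). Tmem97 was the 1 gene of that list lower after rapamycin in intact BE cells (-0.33 ± 0.0790, adjusted p = 0.0117), a call that ended without any of rapamycin replicates 1 and 2 and vehicle replicates 2 and 3 (0.0524 to 0.0969).

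Among 7 tested genes of the sterol-sensing LXR receptors and of efflux, 2 were higher and 2 lower with intact BE under vehicle than with the catalytic mutant. In that comparison 21.0% of all genes were called (11.6% higher and 9.33% lower), and no list was tested against that share. Apoe, the apolipoprotein E gene, was lower (log2 -1.33 ± 0.223, adjusted p = 0.000148), as was the LXR gene Nr1h2 (-0.55 ± 0.107, adjusted p = 0.000456), and the phospholipid enzyme gene Lpcat3 was higher (0.32 ± 0.0856, adjusted p = 0.00704). These 3 held in every setting run, and the call of the other, Scarb1, ended with the length trend removed (0.346). Of 14 genes of sterol storage and transfer, 4 were higher and 2 lower in the same comparison, with the oxysterol-binding gene Osbpl8 at 0.46 ± 0.0819 (adjusted p = 0.000207) and the lysosomal lipase gene Lipa at 0.48 ± 0.0871 (adjusted p = 0.000240). Against nCas9, where 23.0% of all genes were called, that list had 3 higher and 2 lower, led by Osbp at 0.46 ± 0.0763 (adjusted p = 4.03e-05). Of 14 genes that use isoprenoids, 3 were higher and 2 lower with intact BE than with the catalytic mutant, with the prelamin A protease gene Zmpste24 at 0.63 ± 0.0947 (adjusted p = 3.71e-05) and the coenzyme Q gene Coq2 at -0.45 ± 0.0970 (adjusted p = 0.000963). Against nCas9, 2 were higher and 4 lower, led among the lower by Rabggtb at -0.33 ± 0.0789 (adjusted p = 0.00203). With seBE against intact BE under vehicle, the list of isoprenoid use had no call and the list of storage and transfer had 2 lower, neither of which held in every setting run. Of all genes, 3.99% were called there. Over the lists of storage and of isoprenoid use, 5 of 6 and 3 of 5 calls against the mutant and 4 of 5 and 2 of 6 against nCas9 held in every setting run, and removal of the length trend ended the calls of Soat1 and Icmt in both comparisons and that of Coq2 against nCas9 (0.0731). Of 5 oxysterol enzyme genes only Cyp39a1 passed the filter, at up to 3.17 CPM, and it was called with intact BE against nCas9 (1.66 ± 0.617, adjusted p = 0.0486), a call that ended with the length trend removed (0.0505), without the filter (0.0554) and without any library but nCas9 replicate 1 (0.0876 to 0.158).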

How the data were processed

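The deposited table holds raw counts per gene for 18 libraries, made by the authors. Per the submitters' processing notes, the tools were fastp 1.0.1, STAR 2.7.1a, SAMtools 1.9, featureCounts from Subread 2.0.3 and DESeq2, with genome GRCm39. The annotation release, the strand setting and the handling of multi-mapping reads were not given in the sources used here. Symbols matched 52073 of 56748 gene IDs. The members and lists were chosen with earlier results of these data known.

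In R 4.3.3 with edgeR 4.0.16, filterByExpr kept 14985 genes holding 99.93% of the counts. One fit of 6 group means over all 18 libraries was made with TMM scaling and the robust quasi-likelihood F test, with p-values adjusted by Benjamini and Hochberg over all genes of a comparison and a threshold of 0.05. The common dispersion was 0.0176. An SE is the size of the log2 fold change divided by the square root of F. CPM is scaled to TMM-adjusted library sizes, and gene lengths are summed exons of GENCODE on GRCm38, known for 97.4% of tested genes. The fits were tested on simulated counts in 3 of the comparisons. There 8.00 to 20.0% of changes of 1.25-fold and 62.0 to 76.0% of changes of 4-fold were recovered. The changed genes were drawn at random from all 14985 tested genes, those of low count included. No member had under 177 counts in a library, and recovery among the members alone was not simulated. A gene that was not called may therefore still differ, by a fold that these shares do not set for the members. DESeq2 1.42.0, no filter, the compared libraries alone, a replicate block, removal of a gene length trend and leaving out each library were tried. Same-numbered libraries deviated together in every pair only between seBE under rapamycin and under vehicle (r = 0.116, 0.292 and 0.408 over genes), and blocking on the number left 0 members called there. Values are printed for members called at least once, with full sentences for the 12 of smallest adjusted p and for Srebf2, Scap, Insig1 and Insig2, and for up to 3 genes of each other list.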

Additional observations from a re-analysis of the deposited data

How the results depend on the processing

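Of 63 member calls, all 63 held under DESeq2 and under the replicate block, 62 without the low-count filter, 59 with the length trend removed and 56 with the compared libraries alone, and no call reversed under any setting. The counts that moved were as follows. For rapamycin on intact BE cells (5 called), DESeq2 gave 10, no filter 9, the compared libraries alone 11, the replicate block 12 and block and compared libraries together, added after seeing the data, 14. For the mutant against nCas9 (5), the replicate block gave 10, both together 9, and leaving out nCas9 replicate 2 with mutant replicate 3, also added later, 0. For seBE against nCas9 (7) these gave 11, 12 and 4. For the interaction (0), no filter, the block and both together gave 1 each, Acat2 (adjusted p = 0.0253, 0.0184 and 0.0270). Leaving out 1 library gave 8 to 11 for intact BE against nCas9, 12 to 14 against the mutant, 10 to 12 for seBE against intact BE, 1 to 8 for rapamycin on intact BE, 0 to 2 for the interaction, 3 to 9 for seBE against intact BE under rapamycin, 1 to 5 for the mutant against nCas9, 1 to 9 for seBE against nCas9 and 0 in every fit for rapamycin on seBE. The 2 interaction calls came without seBE rapamycin replicate 1. Of all genes, seBE against intact BE under vehicle called 598, with 398 under length trend removal, 1790 in the compared libraries alone and 47 to 514 without 1 library. The rapamycin difference in mitochondrial share of seBE cells, 0.398 percentage points, was -0.113 without seBE rapamycin replicate 2 and 0.856 without seBE vehicle replicate 2. Outside rapamycin on seBE cells, same-numbered libraries did not all deviate together over genes (same-number r from -0.178 to 0.251). In no comparison did every library correlate best with its own number. The members' share of counts was nonetheless highest in replicate 2 and lowest in replicate 1 in the intact BE and seBE groups, with and without rapamycin. That order did not hold with nCas9 or the catalytic mutant. The cause of these shifts was not tested, and 3 libraries a group limit the precision.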
